A study of Canis lupus familiaris with 42 samples.

Results

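The unfolded protein response is the answer of a cell to misfolded protein in the endoplasmic reticulum (ER), the compartment where secreted and membrane proteins are folded. Its sensors ATF6, IRE1 (gene ERN1) and PERK (gene EIF2AK3) raise the supply of chaperones, folding enzymes and degradation factors and slow the entry of new protein. The cleaved form of ATF6 and the protein made from the spliced XBP1 mRNA act on overlapping sets of target genes. Sarcomas are tumours of connective tissue, whose cells secrete much collagen and other matrix through the ER, and heat is a general cause of protein misfolding.

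Described here are 10 genes of the ATF6 and XBP1 branches, of 15115 genes measured: HSPA5, HSP90B1, HYOU1, CALR, DNAJB9, PDIA4, PDIA6, EDEM1, HERPUD1 and XBP1. They were chosen by name, and all 10 were on the array. Each gene was read from the probe set annotated with its symbol alone that had the highest mean over all 42 arrays, and its other probe sets served as a check.

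Total RNA came from spontaneous sarcomas of dogs (Canis lupus familiaris) and was hybridised to a 1-colour Affymetrix array. Each of 21 tumours gave 1 array before treatment, labelled as untreated, and 1 array after the first hyperthermia treatment, labelled hyperthermia, which was given in addition to radiotherapy. The series description speaks of 22 tumours, and 21 pairs were analysed here. A tumour sampled again without hyperthermia was not analysed here, and the labels give neither the time of the later sample nor whether radiation preceded it. The labels do not say whether the tumours came from different dogs, and give no breed, age or tumour subtype. The p-values of the paired test set the mean change against the spread of the change between these tumours, part of which may be technical. They treat the tumours as independent, which the labels do not establish. Tumours are numbered 1 to 21 in place of their codes.

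Levels are log2 values as deposited, on which a difference of 1 is a 2-fold change; the array medians lay between 5.2002 and 5.3099. All 15 measured fibroblast and matrix markers had a mean above 5.28, the median over all probe sets, and 0 of 7 epithelial markers did. Spiked poly-A control transcripts separated 9 tumours with high signals (tumours 8 to 12 and 18 to 21) from 12 with low signals, a difference that both arrays of a tumour shared. In bulk tissue, a smaller share of cells of a type cannot be told apart from less RNA per cell.

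After treatment, 3 of the 10 genes were higher and 0 were lower in limma's paired test at an adjusted p under 0.05. The 3 were HSPA5 and PDIA4, a chaperone and a disulfide isomerase of the ER lumen, and EDEM1, which passes misfolded glycoproteins to degradation. Over all genes, 4.02% were called higher and 3.13% lower by the same test, 7.15% in all. The median change of the 10 genes was 0.44, against 0.00695 over all genes. At an unadjusted p under 0.05, 9 of the 10 were higher and 0 were lower, and the signed-rank test called 2 higher and 0 lower after adjustment. Of the 24 probe sets that carry these symbols, 7 were called higher and 0 lower, beside 2.97% and 2.99% of all probe sets, 5.96% in all.

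**Figure D1:**
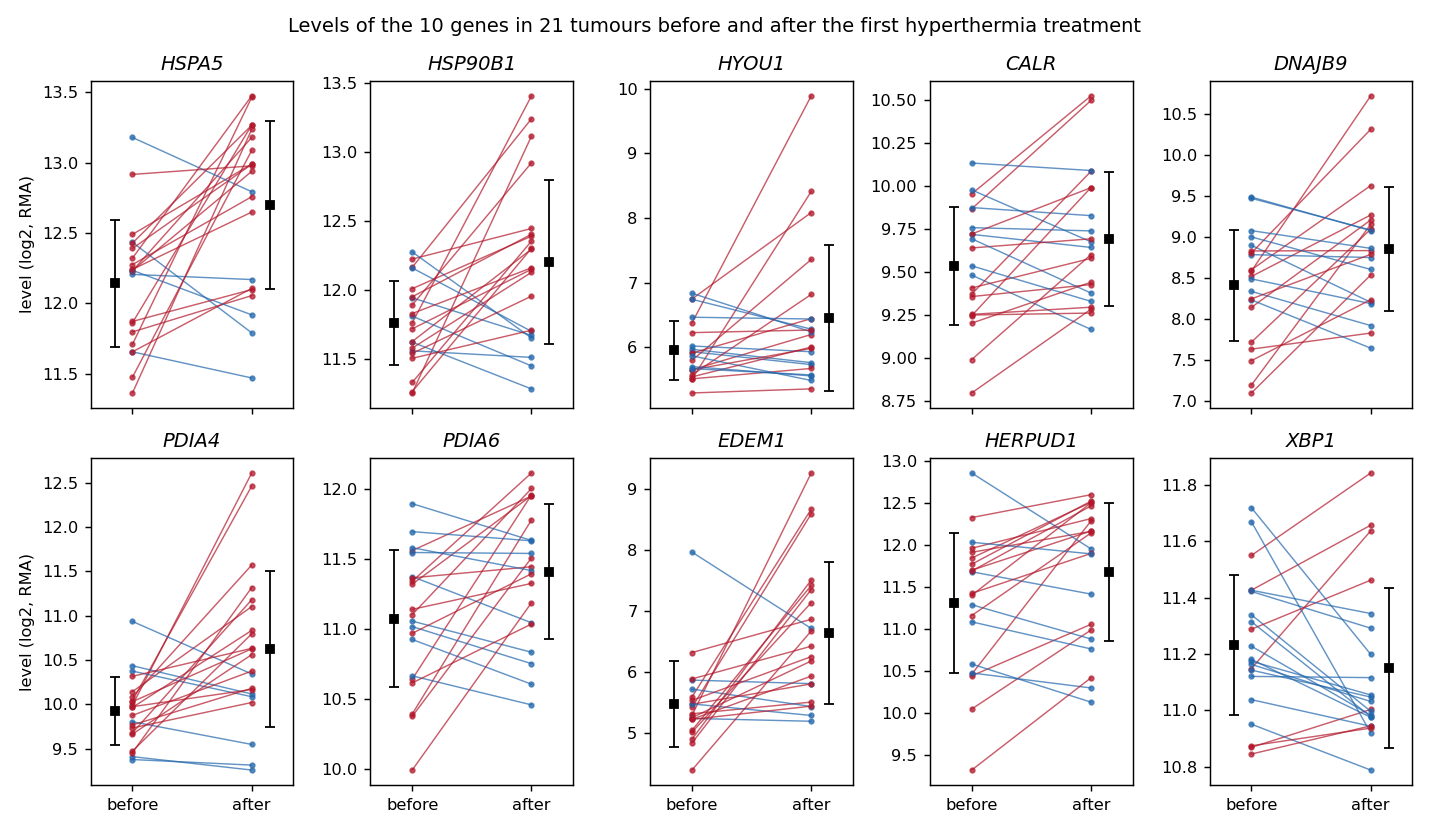
Level of each of the 10 genes (log2, y axis, its own scale in each panel) before and after treatment, with 1 line per tumour, red where the level was higher after and blue where it was lower; black squares and bars are the mean and SD over 21 tumours. HSPA5 was higher after treatment in 16 of 21 tumours, and XBP1 in 7 of 21.

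Among the luminal chaperones, HSPA5 encodes BiP, the HSP70 of the ER, which also holds the stress sensors inactive when it is free. Before treatment its level ran from 11.4 to 13.2 with a median of 12.2. After treatment it ran from 11.5 to 13.5 with a median of 12.9. The ranges overlapped, with the highest level before treatment, in tumour 8, above the median after it. The level was higher after treatment in 16 of 21 tumours, by 0.56 ± 0.14 (SE, n = 21; limma adjusted p = 0.0207), a fold of 1.47. The change in single tumours lay between -0.64 in tumour 6 and 1.87 in tumour 3. The second HSPA5 probe set gave 0.77 ± 0.20 (SE, n = 21; limma adjusted p = 0.0239).

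HSP90B1 encodes GRP94, the HSP90 paralog of the ER. Its level was 11.3 at the lowest, 11.8 at the median and 12.3 at the highest before treatment. The corresponding levels after treatment were 11.3, 12.2 and 13.4. Many tumours after treatment thus lay above the highest level before it, while the low ends coincided. The change was 0.44 ± 0.13 (SE, n = 21), higher in 15 tumours, and missed the threshold (limma adjusted p = 0.0540). Its other probe set passed, at 0.63 ± 0.18 (SE, n = 21; limma adjusted p = 0.0403), a call lost in 11 of 21 fits without 1 tumour. The probe set described first passed without tumour 5, 6, 7, 8, 9 or 14, with limma adjusted p between 0.0238 and 0.0482. Over the alternative settings the adjusted p of HSP90B1 ran from 0.0187 to 0.476.

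HYOU1, a large HSP70-like protein that exchanges the nucleotide of BiP, went from 5.30, 5.87 and 6.84 (lowest, median, highest) to 5.36, 6.20 and 9.89. The low ends and medians lay close together and the high end moved apart. The mean change of 0.50 ± 0.21 (SE, n = 21) did not pass (limma adjusted p = 0.186), with 12 tumours higher and 9 lower. In tumour 1 the level was 3.51 higher on the log2 scale, a fold of 11.4. The HYOU1 median before treatment was not far above 5.28, the median over all probe sets. CALR, the lectin chaperone calreticulin, ranged from 8.80 to 10.1 with a median of 9.54 before treatment, and from 9.17 to 10.5 with a median of 9.64 after. Its change of 0.16 ± 0.07 (SE, n = 21; limma adjusted p = 0.232) was higher in 13 tumours. The 4 CALR probe sets gave changes of 0.12 to 0.36, and none passed; over the tumours they correlated with the one described at only r = 0.50 to 0.55.

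DNAJB9, a J-domain partner of BiP, had a lowest, median and highest level of 7.10, 8.52 and 9.49 before treatment. After treatment these were 7.64, 8.83 and 10.7, with wide overlap. The change of 0.44 ± 0.18 (SE, n = 21; limma adjusted p = 0.151) was above 0 in 12 tumours and below it in 9, and 7 tumours were at least 2-fold higher.

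PDIA4 and PDIA6 encode protein disulfide isomerases, which form and rearrange disulfide bonds in folding proteins. PDIA4 ran from 9.38 through a median of 9.96 to 10.9 before treatment. After treatment it ran from 9.26 through 10.6 to 12.6. Tumours 1 and 3 reached the highest levels after treatment, while the lowest tumours after treatment were no higher than the lowest before it. The rise was 0.69 ± 0.18 (SE, n = 21; limma adjusted p = 0.0228), a fold of 1.62, with 15 tumours higher. Both other PDIA4 probe sets also rose, by 0.61 and 0.42 (limma adjusted p = 0.0192 and 0.0384). The call of the one at 0.42 was lost in 11 of 21 fits without 1 tumour. PDIA6 moved from 9.996, 11.1 and 11.9 to 10.5, 11.4 and 12.1, and its change of 0.33 ± 0.12 (SE, n = 21) did not pass (limma adjusted p = 0.0999). All 4 PDIA6 probe sets gave changes between 0.31 and 0.34, and none passed.

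Of the degradation genes, EDEM1 encodes a mannosidase-like protein that passes misfolded glycoproteins to ER-associated degradation. It was at 4.397, 5.32 and 7.96 (lowest, median, highest) before treatment and at 5.196, 6.42 and 9.26 after it. Before treatment tumour 15 stood alone at 7.96, and the other 20 lay between 4.397 and 6.32. The rise of 1.16 ± 0.28 (SE, n = 21; limma adjusted p = 0.0143), a fold of 2.24, was the largest of the 10 genes, and 16 tumours were higher. The change ran from -1.25 in tumour 15 to 3.97 in tumour 1, a fold of 15.6. The median level before treatment, 5.32, was close to 5.28, the median over all probe sets, so these folds start from a low level. EDEM1 had 1 probe set with its symbol alone, so no second reading was at hand.

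HERPUD1 encodes a membrane protein of the degradation complex. Its levels ran from 9.32 through 11.4 to 12.9 before treatment, with an SD of 0.836 over the 21 tumours, and from 10.1 through 11.95 to 12.6 after it. The change of 0.38 ± 0.13 (SE, n = 21), higher in 14 tumours, did not pass (limma adjusted p = 0.0975). Tumour 8, where the level had been highest before treatment, was lower by the most, at -0.90. Without tumour 8 the change was 0.44 with a limma adjusted p of 0.0366, and without tumours 13 and 15 it was 0.0405.

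XBP1, a transcription factor of this response, had a mean change that was not above 0, unlike the other 9 genes. Its level ran from 10.8 through 11.2 to 11.7 before treatment and from 10.8 through 11.03 to 11.8 after it. The ranges were nearly the same. The change was -0.08 ± 0.06 (SE, n = 21; limma adjusted p = 0.510), with a 95% interval from -0.21 to 0.04, and 14 of 21 tumours were lower. The second XBP1 probe set gave -0.04. Whether the probe sets tell the spliced from the unspliced mRNA is not given in the sources used here, and splicing was not measured. Within tumours, HSPA5 changed by 0.64 ± 0.13 more than XBP1 (SE, n = 21), above it in 18 of 21 tumours (sign-flip permutation test, two-sided p = 5e-05). That comparison was chosen after the values were seen, as 1 of 9 between XBP1 and another of these genes, all of which had an adjusted permutation p of at most 0.00414.

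The size of the changes differed between tumours. All 9 genes other than XBP1 were higher after treatment in 6 tumours, numbers 1, 2, 3, 10, 12 and 16, and in the same 6 at least 5 genes were 2-fold or more higher. In 11 tumours no gene was 2-fold higher. All 10 genes were lower in tumour 8, and 8 or more were lower in tumours 5, 6, 8 and 9. The mean change of the 10 genes was 1.98 in tumour 1 and 1.68 in tumour 3, was lowest in tumours 6 and 8 at -0.37 each, and averaged 0.46 with an SD of 0.66 over 21 tumours. It was above 0 in 14 of them.

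**Figure D2:**
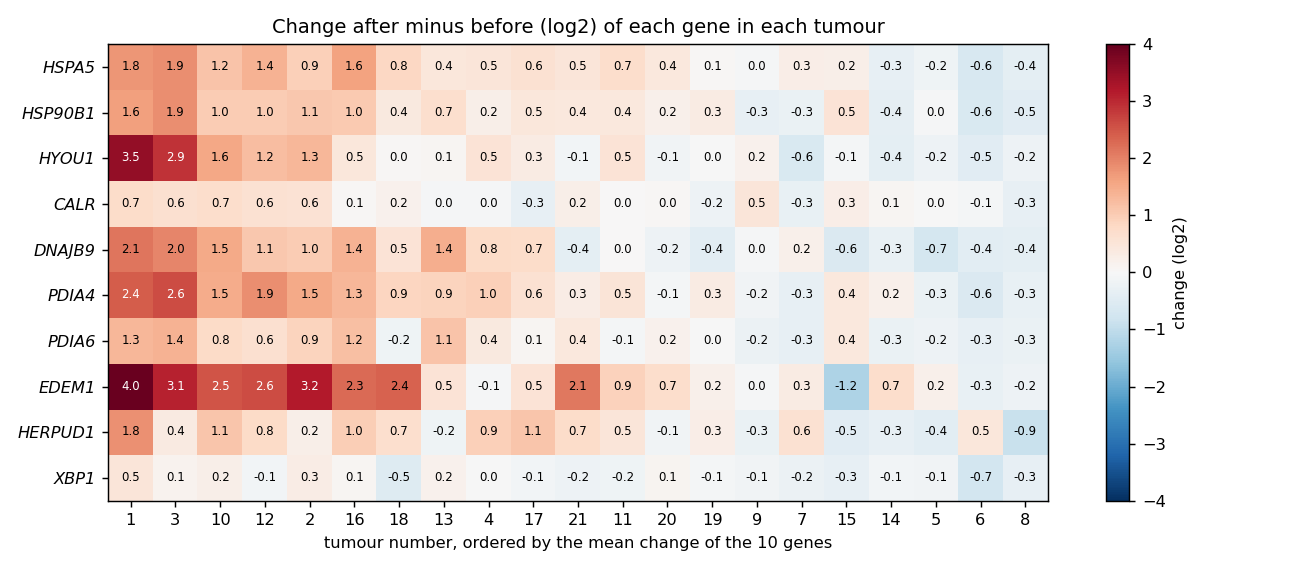
Change after minus before (log2, colour and printed value) of each of the 10 genes (rows) in each tumour (columns, ordered by the mean change of the 10 genes). Tumours 1, 3, 10, 12, 2 and 16 at the left are higher for every gene except XBP1 in tumour 12, and tumour 8 at the right is lower for all 10.

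A mixture model of the changes chose 2 clusters of tumours over 1 for 5 genes, and 1 cluster for the other 5 and for the mean change of the 10. The gain in the Bayesian information criterion (BIC) from a second cluster was 7.07 for HYOU1, 3.89 for EDEM1, 3.005 for PDIA6, 1.34 for DNAJB9 and 0.843 for CALR. For EDEM1 the upper cluster held 8 tumours, the 6 above and tumours 18 and 21, at 2.12 to 3.97, and the lower one held 13 at -1.25 to 0.93. For HYOU1 the upper cluster held tumours 1, 2, 3, 10 and 12, at 1.25 to 3.51, and the other 16 lay between -0.60 and 0.54. DNAJB9, PDIA6 and CALR were split with smaller gaps. The changes of HSPA5, HSP90B1, PDIA4, HERPUD1 and XBP1 formed 1 cluster, so that correlations over all 21 tumours were computed for their 10 pairs.

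HSPA5 and HSP90B1 changed together over the 21 tumours (r = 0.935, rho = 0.896; permutation p = 1e-05 for both, the smallest the resamples can give, adjusted 3.33e-05). HSPA5 and PDIA4 did so as well (r = 0.923, rho = 0.908, with the same p-values), as did HSP90B1 and PDIA4 (r = 0.947, rho = 0.914, with the same p-values). Without tumours 1 and 3, the farthest from the median, these 3 values of r were 0.899, 0.880 and 0.907. Among the 9 tumours with high spike-in signals they were 0.929, 0.928 and 0.914, and among the 12 with low signals 0.941, 0.926 and 0.958. HSPA5 and HERPUD1 were less tightly related (r = 0.660, adjusted permutation p = 0.00188; rho = 0.699, adjusted permutation p = 0.00132; r = 0.656 without tumours 1 and 3; 0.864 and 0.570 among high and low spike-in tumours). The change of XBP1 correlated with that of HSPA5 (r = 0.628, adjusted permutation p = 0.00303; rho = 0.569, adjusted permutation p = 0.0118), with r = 0.514 without tumours 1 and 3. Among the high spike-in tumours that r was 0.251 and among the low ones 0.763. The signs often differed, since HSPA5 was higher in 16 tumours and XBP1 lower in 14. Of the 10 pairs, 9 passed after adjustment by both coefficients, and HERPUD1 with XBP1 did not (r = 0.330, rho = 0.296; adjusted permutation p = 0.145 and 0.192).

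**Figure D3:**
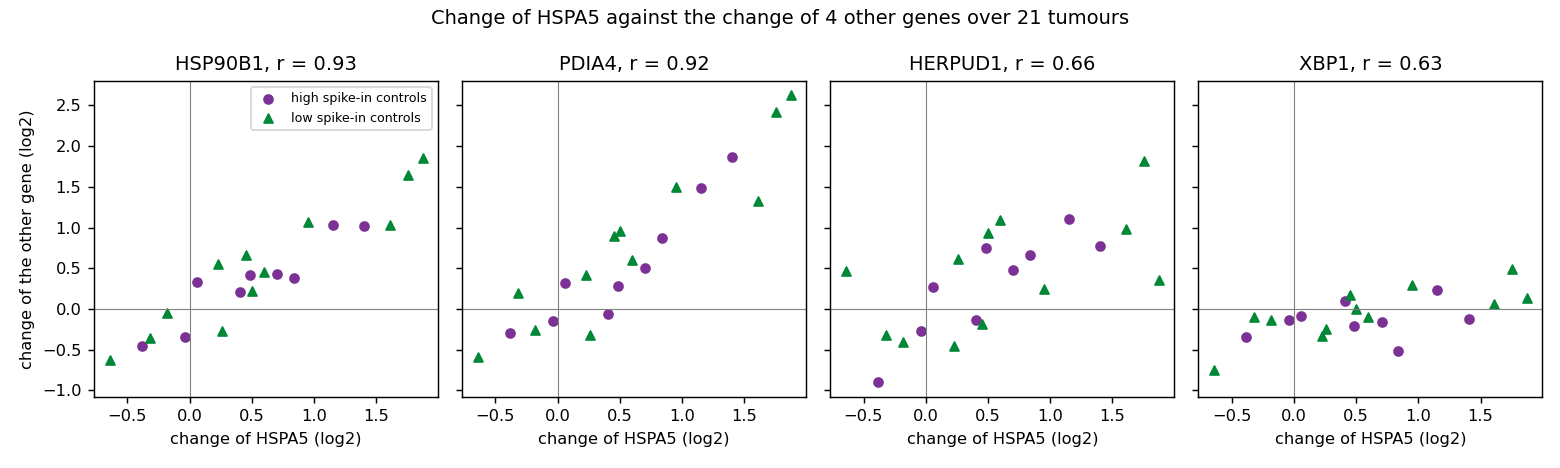
Change of HSPA5 (log2, x axis) against the change of HSP90B1, PDIA4, HERPUD1 and XBP1 (log2, y axis, same scale in the 4 panels), with 1 point per tumour; circles are the 9 tumours with high and triangles the 12 with low spike-in controls. HSP90B1 and PDIA4 lie along a rising line in both kinds of tumour (r = 0.935 and 0.923), while XBP1 stays between -0.75 and 0.49.

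The order of the tumours before treatment was kept after it for few of the genes. HERPUD1 levels before and after correlated (r = 0.683, adjusted permutation p = 0.0061; rho = 0.621, adjusted permutation p = 0.0297; 0.678 without tumours 8 and 17), but r was -0.04 among the 9 high spike-in tumours and 0.636 among the 12 low ones. CALR levels gave r = 0.561 (adjusted permutation p = 0.0395; rho = 0.581, adjusted permutation p = 0.0332), 0.484 without tumours 9 and 13, and 0.062 and 0.400 within the high and low spike-in tumours. For the other 8 genes, among the 10 tested, neither coefficient passed. XBP1 came nearest (r = 0.455, rho = 0.460; adjusted permutation p = 0.127 and 0.123; r = 0.669 without tumours 6 and 18; 0.645 and 0.354 within the high and low spike-in tumours). The r of the others was 0.316 for HYOU1, 0.274 for PDIA6, 0.240 for DNAJB9, 0.152 for PDIA4, 0.108 for HSPA5, -0.01 for HSP90B1 and -0.07 for EDEM1. Within the 9 high spike-in tumours, where EDEM1 levels before treatment had an SD of only 0.20, its r was -0.88. Within the 12 low ones it was -0.10.

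Tumours differed more from each other after treatment than before it for PDIA4 and HYOU1. The SD of the PDIA4 level over tumours went from 0.384 to 0.882, a ratio of 2.30 (Pitman-Morgan test over all probe sets, adjusted p = 0.0384; permutation by swaps within tumours, p = 0.0181). That of HYOU1 went from 0.450 to 1.13, a ratio of 2.505 (adjusted p = 0.0114; permutation p = 0.018). By this test 0.437% of all genes had a larger spread after treatment and 1.4% a smaller one. The SD was larger after treatment for 8 of the 10 genes, against 41.99% of all genes, whose median ratio was 0.959. HYOU1 was not called without tumour 1 (ratio 1.84, adjusted p = 0.217), and PDIA4 was called in 9 of 21 fits with 1 tumour left out, the adjusted p reaching 0.155 without tumour 3. Without tumours 1 and 3 the ratios were 1.59 for PDIA4 and 1.498 for HYOU1, and neither was called. EDEM1, with SDs of 0.703 and 1.17, was not called (adjusted p = 0.344), but was called without tumour 15 (ratio 2.83, adjusted p = 0.0137).

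**Figure D4:**
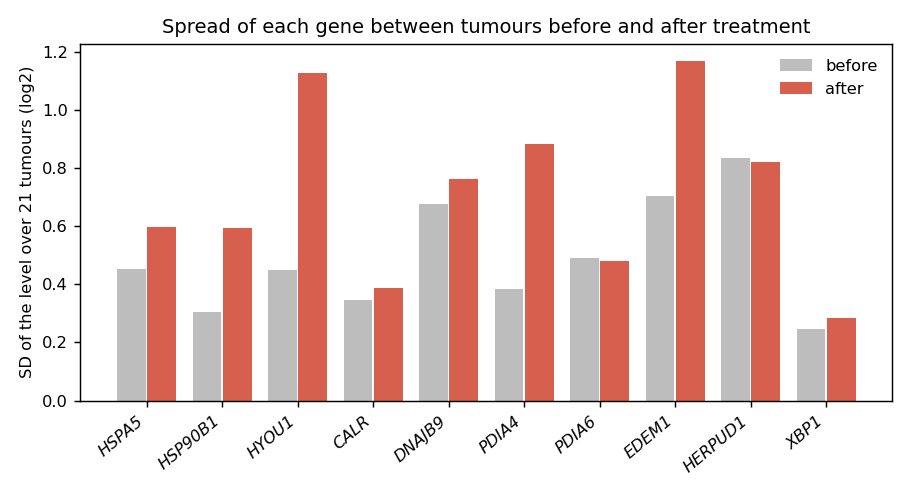
SD of the level over 21 tumours (log2, y axis) for each of the 10 genes before (grey bars) and after treatment (red bars). The bars of HYOU1 go from 0.450 to 1.13 and those of PDIA4 from 0.384 to 0.882, while those of PDIA6 and HERPUD1 stay at nearly the same height.

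In the tumours with high and in those with low spike-in signals, 9 of the 10 genes had a mean change above 0, all but XBP1. HSPA5 changed by 0.51 in the high set (7 of 9 tumours higher) and by 0.59 in the low set (9 of 12 higher). The corresponding changes were 0.54 and 0.81 for PDIA4 and 1.25 and 1.10 for EDEM1. PDIA6 changed by 0.14 in the high set and 0.47 in the low set, and DNAJB9 by 0.19 and 0.64, and each was higher in 4 of 9 tumours of the high set and 8 of 12 of the low set. Within either set alone limma called 0 of the 10 genes in either direction, with 4 and 7 at an unadjusted p under 0.05, and of all genes it called 1.49% higher and 1.81% lower in the high set and 0% either way in the low set. A test of the difference between the sets called 0 of the 10 (lowest unadjusted p = 0.171, limma adjusted p = 0.810; 0.00662% of all genes were called).

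A measure of RNA quality moved by differing amounts between tumours. The mean contrast between control probe sets near the 3′ end and near the 5′ end of actin and GAPDH transcripts changed by 0.13 on average (SD 0.44, n = 21), from -1.03 in tumour 13 to 0.89 in tumour 11. Among the high spike-in tumours this contrast was higher after treatment in all but tumour 8 (-0.38), and among the low ones it went both ways. Over the tumours its correlation with the change of HSPA5 was r = 0.210 (adjusted permutation p = 0.445; rho = 0.362, adjusted permutation p = 0.198), 0.494 without tumours 1 and 3, and 0.559 and 0.138 among the high and low spike-in tumours. With this contrast as a covariate, HSPA5 was higher by 0.51 and fell just outside the threshold (limma adjusted p = 0.0504; range over its alternatives 0.00584 to 0.286), while PDIA4 and EDEM1 remained called.

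Of the sensors and activators of the response, 3 of 18 rose and 0 fell, beside 4.02% and 3.13% of all genes. Their median change was 0.05. CREB3, a membrane-bound transcription factor released by cleavage, rose by 0.52 ± 0.07 (SE, n = 21; limma adjusted p = 0.000164) in 19 of 21 tumours. BAX, a death effector that is also a p53 target and stands in that list too, rose by 0.52 ± 0.06 (limma adjusted p = 1.8e-05) in 21 of 21. ATF6 itself rose by 0.37 ± 0.10 (SE, n = 21; limma adjusted p = 0.0257), a call lost without tumour 10 or 12. The other sensors were named for their role after their values were seen: ERN1 changed by 0.12 (limma adjusted p = 0.224) and EIF2AK3 by 0.21 (limma adjusted p = 0.137), neither of which passed.

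The 30 other chaperones and folding enzymes of the ER had 3 genes that rose and 0 that fell, beside 4.02% and 3.13% of all genes. Their median change was 0.06. ERO1A, the oxidase that recharges disulfide isomerases, rose by 0.95 ± 0.23 (SE, n = 21; limma adjusted p = 0.0151). DNAJC3, a BiP co-chaperone, rose by 0.68 ± 0.18 (SE, n = 21; limma adjusted p = 0.0257). The third was PPIB, named because it completes the count, at 0.26 (limma adjusted p = 0.0444), a call lost in 13 of 21 fits without 1 tumour. SDF2L1, a partner of BiP, changed by 0.72 ± 0.24 (SE, n = 21) and did not pass (limma adjusted p = 0.0736).

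In ER-associated degradation 3 of 24 genes rose and 0 fell, beside 4.02% and 3.13% of all genes. The median change of the 24 was 0.06. DERL1, a channel component through which proteins leave the ER, rose by 0.52 ± 0.10 (SE, n = 21; limma adjusted p = 0.0032) in 18 tumours. UBE2J2, a ubiquitin-conjugating enzyme, rose by 0.23 (limma adjusted p = 0.0160). SELENOS rose by 0.28 (limma adjusted p = 0.0479), a call lost in 15 of 21 fits without 1 tumour.

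In translocation and N-glycosylation 5 of 39 rose and 0 fell (median 0.16), among them SEC61A2, a translocon subunit, by 0.29 ± 0.07 (SE, n = 21; limma adjusted p = 0.0098), and SEC11C, of the signal peptidase, by 0.46 ± 0.11 (SE, n = 21; limma adjusted p = 0.0167). SRP72, SRPRA and TRAM1, named to complete the count, rose by 0.23 to 0.26, and each call was lost in 12 or more of 21 fits without 1 tumour. GFPT1 changed by 0.36 ± 0.11 (SE, n = 21) and did not pass (limma adjusted p = 0.0503). In transport from the ER to the Golgi 5 of 35 rose and 0 fell (median 0.10). LMAN1, a cargo receptor, rose by 0.55 ± 0.14 (SE, n = 21; limma adjusted p = 0.0221) and SEC23B, a coat protein of the transport vesicles, by 0.43 ± 0.11 (SE, n = 21; limma adjusted p = 0.0244). MCFD2 and COPA, also named to complete the count, rose by 0.24 and 0.30, calls lost in 11 and 3 such fits. SEC24D, of the same coat, rose by 0.58 ± 0.16 (SE, n = 21; limma adjusted p = 0.0370), a call lost in 9 of 21 fits without 1 tumour. Over these 5 lists, 19 of 146 genes (13.01%) rose, the p53 target BAX among them, and 0 fell, beside 4.02% and 3.13% of all genes. The count was 51 higher and 4 lower at an unadjusted p under 0.05, and the signed-rank test called 10 higher and 0 lower. The median change was 0.10, and 107 of the 146 were above 0, against 53.1% of all genes. The count moved with single tumours, from 11 without tumour 3, 10, 12, 16 or 21 to 32 without tumour 6. Calls over all probe sets, in either direction, moved as well. They numbered 2558 over all tumours, 1816 without tumour 10, 3114 without tumour 6 and 3171 without tumour 15, where 14 of the 146 genes were called higher.

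**Figure D5:**
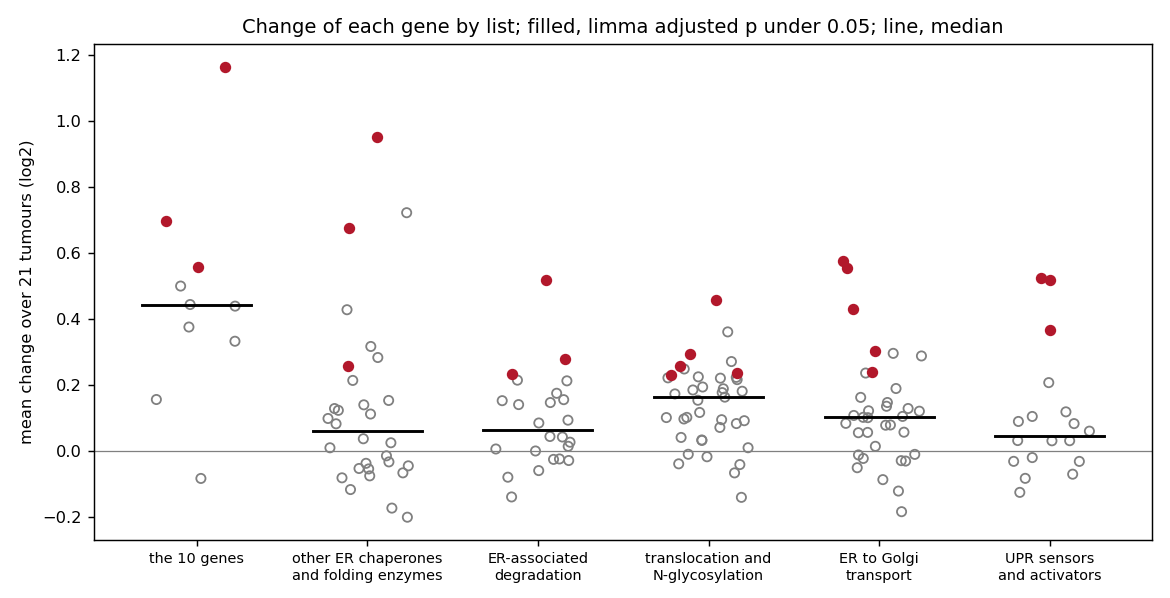
Mean change over 21 tumours (log2, y axis) of each gene of the 10 and of 5 other ER gene lists (x axis); filled points passed limma's test at an adjusted p under 0.05, open ones did not, and lines are medians. The line of the 10 genes stands at 0.44 and those of the 5 lists between 0.05 and 0.16.

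The ATF4 branch, the arm of the response that PERK shares with other stress kinases, had 8 of 26 genes higher, 0 lower and 26 of 26 with a change above 0 (median 0.25), beside 4.02% higher, 3.13% lower and 53.1% above 0 over all genes. PPP1R15A, which directs a phosphatase to the initiation factor eIF2, rose by 0.89 ± 0.21 (SE, n = 21; limma adjusted p = 0.0125). SESN2 rose by 0.73 ± 0.13 (SE, n = 21; limma adjusted p = 0.00256) and EIF4EBP1, a repressor of translation, by 0.70 ± 0.15 (SE, n = 21; limma adjusted p = 0.00662). The SESN2 median before treatment, 4.73, lay below 5.28, the median over all probe sets. ASNS, asparagine synthetase, rose by 1.002 ± 0.29 (SE, n = 21; limma adjusted p = 0.0389), a call lost in 8 of 21 fits without 1 tumour. Of the cytosolic and mitochondrial heat shock chaperones, 4 of 22 rose (CRYAB, and HSPB8, BAG3 and HSPA4L, named to complete the count) and 1 fell, beside the same 4.02% and 3.13% of all genes. CRYAB, a small heat shock protein, rose by 1.14 ± 0.22 (SE, n = 21; limma adjusted p = 0.00358), and HSPA2, the testis-enriched HSP70, fell by 1.19 (limma adjusted p = 0.0016).

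The change of HSPA5 was set against 11 other measures over the 21 tumours, those whose changes formed 1 cluster. It followed the mean change of the other ER chaperones (r = 0.728, adjusted permutation p = 0.00264; rho = 0.708, adjusted permutation p = 0.00572; r = 0.598 without tumours 1 and 3; 0.802 and 0.729 within the high and low spike-in tumours). It also followed the heat shock chaperones outside the ER (r = 0.640, adjusted permutation p = 0.0103; rho = 0.629, adjusted permutation p = 0.01; r = 0.640 without tumours 1 and 3; 0.704 and 0.639 within the spike-in sets). ER to Golgi transport passed as well (r = 0.534, adjusted permutation p = 0.0351; rho = 0.534, adjusted permutation p = 0.04), but its r was 0.377 without tumours 1 and 3, and 0.408 and 0.586 within the spike-in sets. The sensors and activators of the response did not pass (r = 0.233, adjusted permutation p = 0.428; rho = 0.257, adjusted permutation p = 0.356; r = 0.121 without tumours 1 and 3; 0.052 and 0.292 within the spike-in sets). Hypoxia targets (r = 0.428), p53 targets (r = 0.325) and proliferation genes (r = 0.050) did not pass.

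Plasma cells carry a large ER and high levels of many of these genes. Of 10 measured plasma cell and B cell markers, 0 were called in either direction. Averaged over the 10 markers, the level of single tumours lay between 4.65 and 6.43 before treatment and between 4.66 and 5.50 after. Of the 10 markers, 2 had a mean over the arrays above that of the median probe set. The mean change of these markers formed 2 clusters, with tumour 15 alone in the lower one, so it was not set against HSPA5. Neutrophil markers moved with HSPA5 (r = 0.566, adjusted permutation p = 0.0262; rho = 0.648, adjusted permutation p = 0.00929; r = 0.515 without tumours 1 and 3; 0.735 and 0.521 within the spike-in sets). Of 9 neutrophil markers 3 rose, S100A9, LCN2 and TREM1, and 0 fell, beside 4.02% and 3.13% of all genes. Averaged over the 9 markers, the level of single tumours lay between 4.36 and 8.25 before treatment and between 4.54 and 7.19 after. The calls of S100A9 and LCN2 were lost in 15 and 6 of 21 fits without 1 tumour. The part of these cells in the result was not tested. Of 15 macrophage and monocyte markers 3 rose (MSR1, MARCO and ITGAM) and 1 fell (CSF1R). Of 15 fibroblast and matrix markers 0 rose and 2 fell (COL6A3 and SPARC). Against the change of HSPA5 neither list passed (macrophage r = -0.26, fibroblast and matrix r = -0.09). Of 13 T and NK cell markers 0 rose and 7 fell, and of 17 proliferation genes 0 rose and 12 fell. Of the endothelial, epithelial and skeletal muscle markers 0 were called. The part of these lists in the change of the 10 genes was not tested.

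The genes whose change was most like the mean change of the 10 were, as a description over 21 tumours and 9168 genes, DNAJB11 (r = 0.935), SDF2L1 (0.929), DNAJC3 (0.914), MANF (0.907), TGIF1 (0.907), SPCS3 (0.906), DERL1 (0.901), HSPA9 (0.900), SELENOK (0.896) and SNRPA1 (0.895). The median r over all genes compared was -0.01. DNAJB11, SDF2L1, DNAJC3 and MANF were in the list of other ER chaperones, and DNAJB11 itself changed by 0.43 ± 0.14 (SE, n = 21) without passing (limma adjusted p = 0.0609). Ranked by rho in place of r, 6 of the 10 genes were the same. Of the 50 genes with the highest r, 11 (22%) belonged to the 4 other ER lists outside the sensors, as did 125 of the 9168 genes compared (1.36%).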

How the data were processed

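The deposited table holds log2 probe set values of 42 arrays, made by the authors with RMA in Affymetrix Expression Console, per the submitters' processing notes; versions are not given in the sources used here. RMA sets all arrays to 1 distribution, so a shift shared by all genes is not seen. Of 43035 rows, 111 controls were left out and 42924 probe sets tested. The platform's annotation gave 1 symbol to 29254 probe sets, several to 439 (not used). Each gene was represented by its probe set with the highest mean, which left 15115 genes. Depth has no meaning here, and the number of arrays limits precision. limma 3.58.1 (R 4.3.3; lmFit, eBayes, tumour as a fixed block, two-sided) gave changes, and Benjamini-Hochberg adjustment ran over all probe sets at 0.05. The script was tested on simulated data.

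Arrays were paired by the tumour code in their titles; in 21 of 21 pairs each array correlated best with its partner (r of probe set values centred on the group means, 0.438 to 0.90). Clusters came from mclust 6.1.1. Correlations used 100000 resamples (Python 3.11.15, NumPy 2.4.6, SciPy 1.17.1). The 10 genes and the gene lists were chosen with earlier results of these data known. Named genes were the 10, in each list other than the cell type markers the 2 of lowest p and the 2 of greatest absolute change, and the 10 most alike in change. Genes so picked from the proliferation, p53 and hypoxia lists were not described, apart from BAX. Deviating from the plan, correlations were limited to measures that formed 1 cluster, the comparison with XBP1 and that of spread were added after the data were seen, and promoters and proteins were not described. Alternatives were the test, the weights, the scaling, a filter on low levels, the mean of a gene's probe sets, the block, the RNA contrast, the spike-in sets and leaving out each tumour.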

Additional observations from a re-analysis of the deposited data

How the results depend on the processing

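The number of the 10 genes called higher was 3, and 2 to 4 under 10 alternatives run on the paired tumours. It was 0 in the tumours with high spike-in signals alone (4 at an unadjusted limma p under 0.05), 0 in those with low signals alone (7 unadjusted) and 0 without the replicate block that pairs the tumours (6 unadjusted). Of all genes, 1.49% were called higher in the high set and 0% in the low set. That share is not given here for the fit without the block. Leaving out 1 tumour gave 3 to 5 of the 10 genes, with HSPA5, PDIA4 and EDEM1 called in each of the 21 fits. Over all probe sets the calls in these fits ran from 1816 to 3171. None of the 10 genes was called lower in any setting run. PDIA4 missed the threshold by the signed-rank test (adjusted p = 0.0511; range over its alternatives 0.00695 to 0.321). Of the 146 genes in the 5 other ER lists, 19 were called higher, but 10 by the signed-rank test, 11 with array weights, 2 in the high and 0 in the low spike-in tumours (40 unadjusted), 1 without the replicate block, and 11 to 32 when leaving out 1 tumour. The number called lower was 0, but 3 with array weights, 1 with the mean of all probe sets, 4 without tumours 13 and 15, and 0 to 2 when leaving out 1 tumour. The mean change of each of the 10 genes kept its sign in each setting run, while the number of the 146 list genes with a change above 0 moved between 86 in the high and 119 in the low spike-in tumours (107 over all tumours). The cause of these differences was not tested, and each spike-in set held fewer tumours than the whole. Treatment and the passing of time between samples cannot be told apart.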
